A study of Mus musculus with 10 samples.

Results

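MicroRNA (miRNA) levels in 1 RNA sample of proliferating C2C12 cells were measured on 2 platforms, a qPCR-array and a microarray, to determine which miRNAs and miRNA families each platform ranked high or missed. C2C12 is a mouse skeletal muscle myoblast line of C3H origin that divides in rich medium and fuses into myotubes when serum is withdrawn. The cells received no treatment. The qPCR-array group held 4 TaqMan Array A cards loaded from 500 ng of RNA without pre-amplification, made from 2 reverse transcription reactions (RT1 and RT2) that were each assayed on day 1 and on day 2. The microarray group held 2 uParaflo chips, each hybridized with 8 µg of the same RNA. These 6 samples were chosen from the 10 of the series because they measure the same miRNAs in the same RNA on both platforms. Since 1 RNA preparation of 1 cell line was used throughout, the error terms describe technical spread and hold no biological replication, and the 4 cards share 2 reverse transcription products.

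Mouse miRNAs were matched between the platforms by identical name. Of 335 mouse assays on Array A, 333 had a microarray probe of that name, and 284 of the 617 probes had no such assay. The cards report a cycle threshold (Ct), the PCR cycle at which fluorescence crosses a fixed line, so that a lower Ct is a higher level and 1 cycle is close to 1 log2 unit. An undetermined well is set to 40. The microarray reports a fluorescence signal over 5 spots per probe, used here as the mean log2 of the 5 spots. A miRNA was taken as detectable on the cards at a mean Ct of 35 or less, and on the microarray at a log2 signal of 5 or more (a signal of 32) on both chips.

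A mature miRNA is a short RNA cut from a hairpin precursor, and its seed, bases 2 to 8 from the 5′ end, directs it to target mRNAs. Families share a seed and differ elsewhere, often by 1 base, so that a platform has to tell near-identical molecules apart. In a stem-loop assay a primer anneals to the 3′ end of the mature miRNA and a TaqMan probe reads the extended product, while a microarray probe pairs along the whole mature sequence. The let-7 family restrains growth and promotes differentiation in many tissues. The miR-17-92 cluster and its paralogs are known for promoting proliferation, and miR-1, miR-133 and miR-206 are the muscle miRNAs.

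The sequences of the let-7 family are shown because 5 of its members were among the 10 highest of the microarray and none among the 10 highest of the qPCR-array. They are the array's target sequences, and each was found as a mature miRNA in RefSeq (GRCm38.p6). Capitals mark the seed, which all 9 share.
let-7a: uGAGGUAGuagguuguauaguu
let-7b: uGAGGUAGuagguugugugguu
let-7c: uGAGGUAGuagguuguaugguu
let-7d: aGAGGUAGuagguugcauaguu
let-7e: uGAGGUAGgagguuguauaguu
let-7f: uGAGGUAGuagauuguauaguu
let-7g: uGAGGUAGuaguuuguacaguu
let-7i: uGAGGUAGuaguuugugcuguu
miR-98: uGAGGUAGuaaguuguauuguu
They lie on several chromosomes. The RefSeq mature sequence of let-7a is at chr13:48538239-48538260 on the minus strand, let-7e is at chr17:17830366-17830387 on the plus strand and let-7g is at chr9:106178846-106178867 on the plus strand. Mature let-7c is encoded at chr15:85706616-85706637 and at chr16:77599672-77599693, both on the plus strand, and these copies cannot be told apart on either platform.

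Another set is shown because the members of each of its pairs differ by 1 base and the pairs are described below. In some of these pairs a member was not detectable on 1 platform, so the gap there has no exact size. Here capitals mark the differing base, and a substitution such as U19A gives the base of the first member, its position from the 5′ end and the base of the second. The target of miR-23b was found within its RefSeq hairpin, at chr13:63300529-63300549 on the plus strand, and that of miR-23a at chr8:84208563-84208583 on the plus strand.
miR-23a: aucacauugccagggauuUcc
miR-23b: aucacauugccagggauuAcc
miR-17: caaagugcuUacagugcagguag
miR-106a: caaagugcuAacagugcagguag
miR-19b: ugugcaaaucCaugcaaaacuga
miR-19a: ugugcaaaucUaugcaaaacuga
miR-29a: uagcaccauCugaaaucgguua
miR-29c: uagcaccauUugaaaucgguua
miR-103: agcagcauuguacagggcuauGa
miR-107: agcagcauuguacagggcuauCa
The substitutions are U19A in miR-23a/miR-23b, U10A in miR-17/miR-106a, C11U in miR-19b/miR-19a, C10U in miR-29a/miR-29c and G22C in miR-103/miR-107. In all 5 pairs the changed base lies outside the seed.

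The samples of each platform resembled each other closely. Pearson's r between cards was 0.983 to 0.993 over the 83 miRNAs detectable on both platforms, and r between the chips was 0.986. The median SD of a miRNA was 0.180 cycles over the 4 cards and 0.238 log2 units over the 2 chips. MammU6, the endogenous control RNA subtracted from each Ct, had Cts of 19.57 to 19.77 on the cards, and ath-miR159a, a plant miRNA used as negative control, was undetermined on all 4. Each card had 176 to 185 of the 333 matched miRNAs at a Ct of 35 or less, and the chips had 89 and 91 at a log2 signal of 5 or more. The Cts were not spread evenly within cycles: 46 of the 83 mean Cts (55.4%) had a decimal part of 0.8 or more, just under a whole number. Its part in the comparisons below was not tested.

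The matched markers did little to check the label of the cells. Of the 5 muscle miRNAs matched, 3 (60.0%) were detectable on the cards and 2 (40.0%) on the microarray, against 52.0% and 25.5% of all matched miRNAs. For miR-133b, a muscle miRNA, the mean Ct was 28.85 and the mean log2 signal was 5.21. miR-1 had Cts of 31.81, 34.97, 34.76 and 40.00, so that 1 undetermined well put its mean of 35.38 above the limit, and the rat-named miR-1 assay of the same cards had a mean Ct of 31.34. The probe of miR-206 had a log2 signal of 12.10 and no mouse assay of that name on Array A. Of markers of other cell types, 3 of 5 of blood cells, 1 of 7 of neurons, 1 of 2 of endothelium and 1 of 4 of pancreas were detectable on the cards, with none of 7 for epithelium, 11 for embryonic stem cells and 1 for liver. On the microarray none of these matched markers of other cells was detectable. Outside the matched set, the probe of miR-128, a neuron miRNA, had a mean log2 signal of 6.14 and no assay of that name on Array A. The paper lists miR-128a among the miRNAs with a Ct above 30 to 35.

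Detection differed first. Of the 333 matched miRNAs, 173 were detectable on the cards and 85 on the microarray, of which 83 (24.9%) were detectable on both, 90 by the qPCR-array only, 2 by the microarray only (5 without microarray 1) and 158 on neither. The share seen on the microarray fell with Ct. It was 9 of 10 (90.0%) at mean Cts above 20 to 25, 54 of 75 (72.0%) above 25 to 30, 20 of 88 (22.7%) above 30 to 35 and 2 of 160 (1.25%) above 35 to 40. No test was made of these counts, which depend on both limits. With a microarray limit of 500 in place of 32, 36 miRNAs (10.8%) were detectable on both and 41.1% by the qPCR-array only.

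**Figure D1:**
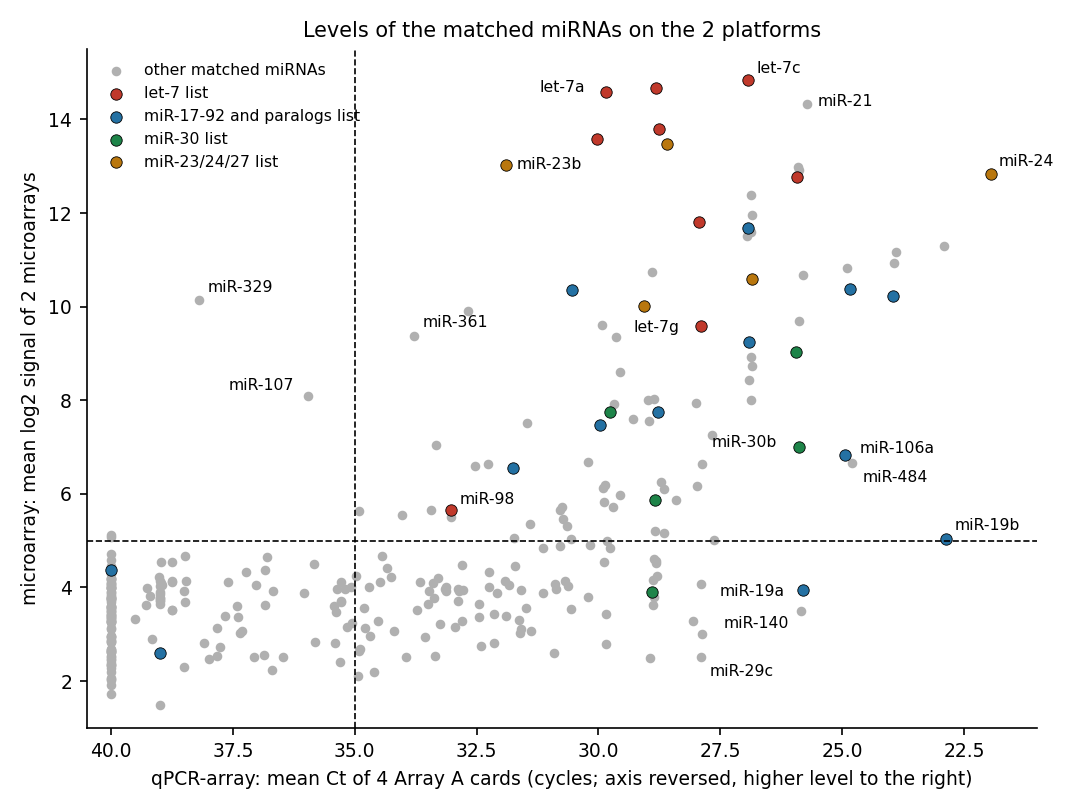
Mean Ct of the 4 Array A cards (x axis, cycles, reversed so that higher levels lie to the right) against the mean log2 signal of the 2 microarrays (y axis) for 333 matched miRNAs, with 4 lists in colour. Dashed lines mark the limits, a Ct of 35 and a log2 signal of 5. Most let-7 members lie near the top of the y axis, with let-7g and miR-98 lower. miR-19b, of rank 2 on the cards, lies on the limit of the microarray.

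The miRNAs that the microarray missed included highly ranked ones of the cards. miR-19b, a miR-17-92 member, had rank 2 on the cards with Cts of 22.73, 22.79, 22.97 and 22.98 (in the order RT1 day 1, RT2 day 1, RT1 day 2 and RT2 day 2, kept below), while its log2 signals were 5.09 and 4.99. It was therefore missed by the limit on 1 chip only. Its paralog miR-19a had Cts of 25.54, 25.78, 25.96 and 25.90 and log2 signals of 3.41 and 4.50. miR-140, best known from cartilage, had Cts of 25.78, 25.83, 25.82 and 25.94 and log2 signals of 2.69 and 4.29. The 4 cards lay close together for each of these 3 miRNAs, and both chips placed miR-19a and miR-140 under the limit.

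The other 7 of the 10 lowest Cts among miRNAs not detectable on the microarray belonged to miR-99a (mean Ct 27.64), miR-186 (27.87), miR-29c (27.90), miR-365 (27.90), miR-301a (28.06), miR-532-3p (28.80) and miR-322 (28.81). Their mean log2 signals were 5.02, 3.0, 2.50, 4.08, 3.28, 4.24 and 4.53, in the same order. Close to the microarray limit, miR-210 (5.28 and 5.04), miR-133b (5.29 and 5.13) and miR-130b (5.59 and 5.13) were just inside it. miR-19b, miR-99a (5.15 and 4.89), miR-15a (4.90 and 5.10) and miR-133a (4.99 and 5.65) were just outside. At the Ct limit, miR-150 was just inside with a mean Ct of 34.98.

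Only 2 miRNAs were detectable on the microarray and not on the cards. miR-107, a relative of miR-103 encoded in a pantothenate kinase gene, had Cts of 34.99, 40.00, 33.83 and 34.99, and log2 signals of 8.29 and 7.89. So 3 of 4 cards had it at or under 35 and 1 well was undetermined. miR-329, of the imprinted Dlk1-Dio3 cluster, had a Ct of 32.75 on RT1 day 1 and was undetermined on the other 3 cards, while its log2 signals were 9.08 and 11.20.

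Whole lists were detected unevenly. All 9 matched let-7 members and all 5 of miR-23/24/27 were detectable on both platforms. The miR-29 list (repressors of collagens) had 3 of 3 on the cards and 1 of 3 on the microarray, the miR-322/miR-503 cluster, tied to cell cycle exit of myoblasts, 5 of 7 and 1 of 7, miR-34/miR-449, of which miR-34 is a p53 target, 5 of 5 and 2 of 5, and miR-146, known from inflammation, 2 of 2 and 0 of 2. Of the Sfmbt2 cluster, a large rodent-specific group, 6 of 9 were detectable on the cards and 0 of 9 on the microarray. Of the Dlk1-Dio3 cluster, 5 of 42 were detectable on the cards and 1 of 42 on the microarray, with no miRNA on both. Over all 333 matched miRNAs the shares were 52.0% and 25.5%.

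The most abundant miRNAs differed between the platforms. None of the 10 highest of the cards was among the 10 highest of the microarray. Of the 20 highest, 7 were shared (35% of each list): let-7e, miR-125b-5p, miR-21, miR-214, miR-24, miR-29a and miR-31. Of the 50 highest, 32 (64%) were shared. The 10 highest of the cards were, in order, miR-24, miR-19b, miR-31, miR-29a, miR-16, miR-17, miR-484, miR-20a, miR-222 and miR-106a, of which 4 belong to the miR-17-92 list and none to let-7. The 10 highest of the microarray were let-7c, let-7b, let-7a, miR-21, let-7d, let-7f, miR-23a, miR-23b, miR-214 and miR-125b-5p, of which 5 belong to let-7 and none to miR-17-92.

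Over the 83 miRNAs detectable on both, the level on the cards (the negative of Ct minus MammU6, ΔCt) and the log2 microarray signal had r = 0.463 and rho = 0.504. These correlations run across miRNAs of 1 RNA sample, which are not independent replicates, and are given as a description. Each of the 8 pairings of a card and a chip gave r between 0.423 and 0.496. By Ct, r was 0.709 above 20 to 25 (n = 9), 0.430 above 25 to 30 (n = 54) and 0.280 above 30 to 35 (n = 20), classes in which the spread of Ct is cut short. By GC content r was 0.468 above 30% to 45% (n = 25), 0.424 above 45% to 55% (n = 41) and 0.481 above 55% to 70% (n = 17). Without let-7 r was 0.532 (n = 74), and without the 2 miRNAs farthest from the median ΔCt, miR-197 and miR-24, it was 0.427 (n = 81). Among the 3 classes of Ct, r was highest in the most abundant one, which held the fewest miRNAs.

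To express discordance per miRNA, each sample was centred on its median over the 83 miRNAs, and the difference between platforms (qPCR-array minus microarray, in log2 units) was fitted with limma. A negative difference means that a miRNA stood lower among the 83 on the cards than on the microarray. With Benjamini-Hochberg adjustment over the 83, 74 differed at an adjusted p under 0.05, which is 89.2% of those tested. Of these, 38 (45.8%) were higher and 36 (43.4%) lower on the cards. With a difference of at least 2 log2 units as well, 38 differed, 19 (22.9%) higher and 19 (22.9%) lower. The median size of the difference was 1.88 log2 units or 3.68-fold, and 17 miRNAs differed by less than 1 log2 unit. Because nearly all miRNAs passed, the size and direction of a difference carry more than its call. In lists of 2 or 3 members a call says little beyond this background. Leaving out microarray 2 lowered the differences by a median of 0.44 log2 units, a common shift that the values given below without microarray 2 include.

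**Figure D2:**
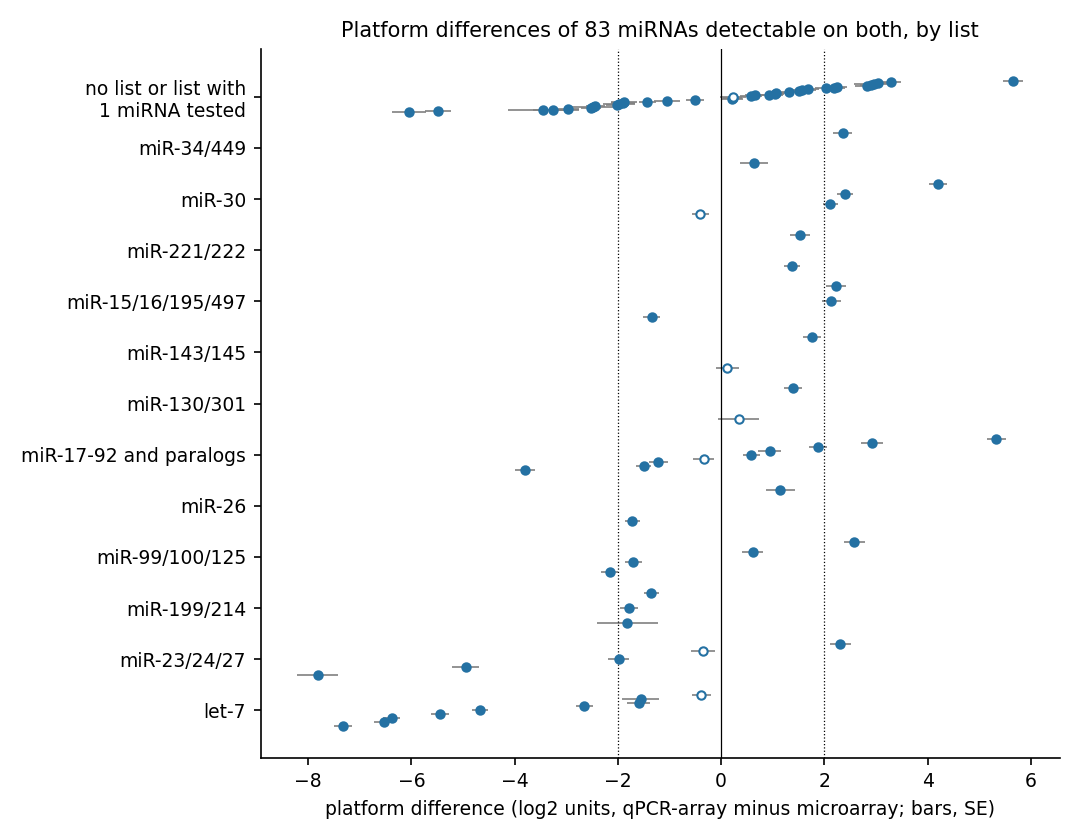
Platform difference of each of the 83 miRNAs detectable on both platforms (x axis, log2 units, qPCR-array minus microarray, with SE from limma), grouped by list (y axis). Filled points passed an adjusted p of 0.05, dotted lines mark 2 log2 units, and all 9 let-7 members lie left of 0, from -7.33 to -0.39, with let-7g turning to the right of 0 under 3 alternative filters.

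The let-7 family was lower on the cards. Of its 9 members, 8 were called lower and none higher, where 43.4% of all 83 were called lower. The median difference was -4.67 log2 units, against 0.21 over all 83 miRNAs and 0.58 over the 74 outside let-7. let-7a had Cts of 29.83, 29.86, 29.71 and 29.99, rank 79 on the cards, and log2 signals of 14.41 and 14.75, rank 3 on the microarray. Relative to the sample medians it stood at -1.08 ± 0.16 on the cards (SD, n = 4) and at 6.25 ± 0.20 on the microarray (SD, n = 2), a difference of -7.33 ± 0.18 (SE), or 161-fold (limma adjusted p = 6.47e-09). The cards placed it under the median miRNA and both chips placed it near the top, without overlap.

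let-7f and let-7b showed gaps nearly as wide, with differences of -6.52 ± 0.20 and -6.38 ± 0.16 (SE). let-7f had Cts of 30.09, 30.12, 29.96 and 29.98 and log2 signals of 13.32 and 13.86. let-7b had Cts of 28.53, 28.76, 28.97 and 28.98 and log2 signals of 14.51 and 14.84. let-7d, which is transcribed with let-7f and let-7a from chr13:48536078-48538260, differed by -5.45 ± 0.17 (SE). All 3 were far lower on the cards, although let-7f is also encoded on chromosome X, at chrX:151912353-151912374.

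let-7c had rank 30 on the cards, with Cts of 26.88, 26.93, 26.92 and 26.96, and rank 1 on the microarray, with log2 signals of 14.75 and 14.95. Its difference was -4.67 ± 0.15 (SE). let-7i (-2.65), let-7e (-1.60) and miR-98 (-1.56) were also called lower on the cards, by smaller amounts. let-7g stood at 0.87 ± 0.21 on the cards (SD, n = 4) and 1.25 ± 0.12 on the microarray (SD, n = 2), and its difference of -0.39 ± 0.18 (SE) missed the threshold (limma adjusted p = 0.0726). Its sign turned with higher signal limits, to 0.04 at a limit of 64 and 0.85 at 500, and to 0.61 without a filter.

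The family therefore had unlike orders on the platforms. On the cards let-7e was highest (mean Ct 25.93), followed by let-7c, let-7g, let-7i, let-7d, let-7b, let-7a, let-7f and miR-98 (33.02). On the microarray let-7c was highest and let-7g was above miR-98 only. On the cards let-7g (27.90) and let-7i (27.93), let-7d (28.76) and let-7b (28.81), and let-7a (29.85) and let-7f (30.04) were neighbours whose replicates overlapped. On the microarray let-7c (14.85), let-7b (14.68) and let-7a (14.58) lay within 0.27 log2 units of each other. The family spanned 7.08 cycles on the cards and 9.20 log2 units on the microarray, and on both platforms miR-98 marked the low end.

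**Figure D3:**
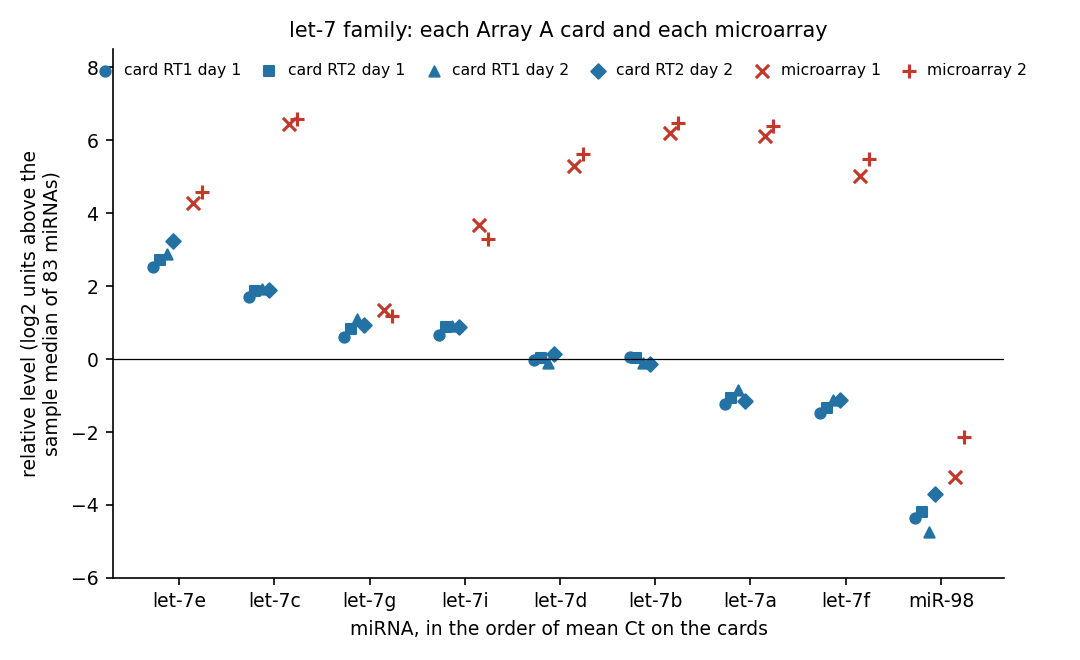
Level of each let-7 member in each of the 4 cards (blue, left of each pair) and 2 microarrays (red, right), in log2 units above the sample median of the 83 miRNAs, with members in the order of mean Ct. The chips lie above all cards for each member, by the least for let-7g (1.25 on average, against 0.87 on the cards), and miR-98 is lowest on both platforms.

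The miR-17-92 list showed no common direction. Of 13 matched members, 11 were detectable on the cards and 9 on the microarray. Of the 9 tested, 5 were called higher and 3 lower on the cards, against 45.8% and 43.4% of all 83. Their median difference was 0.58. miR-106a, of the paralogous cluster on chromosome X, had Cts of 24.96, 24.90, 24.96 and 24.97 and log2 signals of 7.05 and 6.60, a difference of 5.33 ± 0.19 (SE) or 40.3-fold. miR-17 had Cts of 23.97, 23.96, 23.89 and 23.96 and log2 signals of 10.53 and 9.95, a difference of 2.92 ± 0.21 (SE). miR-20a was higher by 1.88, miR-93 by 0.94 and miR-106b by 0.58. Without microarray 2 the last 2 were at 0.24 and 0.12 and lost the call, and the median of the list was 0.18. The 6 members with the seed of miR-17 (AAAGUGC) were detectable on both platforms, and 5 of the 6 were higher on the cards, with miR-20b (-1.21) the one called lower.

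The tested members with another seed were only miR-25, miR-92a and miR-18a. None of them was called higher, against 45.8% of all 83. miR-19b and miR-19a, also with another seed, were not tested because they were not detectable on the microarray. Their mean Cts were 22.87 and 25.80 and their mean log2 signals 5.04 and 3.95. With so few members tested, and with miR-19b and miR-19a left out, no contrast by seed is drawn. miR-25 had Cts of 30.25, 30.40, 30.94 and 30.60 and log2 signals of 10.42 and 10.28, and was lower on the cards by 3.80 ± 0.19 log2 units (SE). miR-92a, with the same seed as miR-25 (AUUGCAC), had Cts of 26.89, 26.92, 26.95 and 26.96 and log2 signals of 11.65 and 11.69, a difference of -1.50. miR-18a, at -0.33, missed the threshold (limma adjusted p = 0.151). Neither platform detected miR-18b, undetermined on all 4 cards, or miR-363 (mean Ct 38.99).

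Among the 83 miRNAs tested, miR-23/24/27 held the widest discordance. These miRNAs come from a cluster at chr8:84208563-84208896 (miR-23a, miR-27a, miR-24) and another at chr13:63300529-63301272 (miR-23b, miR-27b, miR-24). miR-23a is known to repress ubiquitin ligases of muscle atrophy. miR-23b had Cts of 31.24, 31.82, 32.98 and 31.50 and log2 signals of 13.001 and 13.068. It ranked 117 on the cards and 8 on the microarray, and its difference of -7.82 ± 0.40 (SE), or 226-fold, was the largest of the 83 (limma adjusted p = 2.92e-07). miR-23a differed by -4.95 ± 0.27 and miR-27b by -1.98 ± 0.20 (SE). miR-24, first on the cards with Cts of 21.89, 22.00, 21.95 and 21.99 and log2 signals of 13.15 and 12.53, was higher on the cards by 2.31 ± 0.21 (SE). miR-27a, at -0.35, missed the threshold (limma adjusted p = 0.181), so members of 1 cluster differed in opposite directions.

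The miR-30 list had 3 members higher on the cards and none lower among 4 tested, against 45.8% higher and 43.4% lower of all 83. miR-30b had Cts of 25.72, 25.96, 25.91 and 25.96 and log2 signals of 6.75 and 7.26, a difference of 4.21 ± 0.17 (SE) or 18.5-fold. miR-30a (2.40) and miR-30c (2.12) were higher by amounts close to each other. miR-30d, at -0.40, missed the threshold (limma adjusted p = 0.0539). miR-30e was detectable on the cards only, with a mean Ct of 28.90 and a mean log2 signal of 3.91.

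Smaller lists split or moved together. In miR-15/miR-16/miR-195/miR-497, which restrain the cell cycle, miR-16 (2.22) and miR-195 (2.14) were higher on the cards and miR-15b (-1.35) was lower, while miR-15a and miR-497 were not detectable on the microarray. In miR-99/miR-100/miR-125, miR-100 (2.58) and miR-99b (0.61, but -0.05 without microarray 2) were higher and miR-125a-5p (-2.15) and miR-125b-5p (-1.70) were lower, and miR-99a was detectable on the cards only. The 3 miRNAs with the seed CCCUGAG (miR-125a-5p, miR-125b-5p and miR-351) were all lower, the last of them by 2.44 log2 units. In miR-199/miR-214, miR-214 (-1.78), miR-199a-3p (-1.36) and miR-199a-5p (-1.82) were all lower. A locus on the antisense strand of the dynamin 3 gene holds all 3, and miR-199a-3p and miR-199a-5p are also encoded elsewhere. For miR-199a-5p the Ct of RT1 day 1 was 30.51 and those of the other 3 cards were 32.65 to 33.16, and its call was lost without either chip (limma adjusted p = 0.0953 without microarray 1 and 0.0647 without microarray 2). In miR-221/miR-222, which repress the cell cycle inhibitor p27 in proliferating myoblasts, miR-222 (1.37) and miR-221 (1.53, or 0.92 without microarray 2) were both higher.

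The remaining lists held 1 or 2 tested members. miR-34b-3p (2.35) and miR-34a (0.64, limma adjusted p = 0.0498, but 0.01 without microarray 2 and -0.36 after normexp correction) were higher on the cards, as were miR-29a (2.04, or 1.29 without microarray 2) and miR-145 (1.76), which marks smooth muscle. miR-26b (1.15, but 0.36 and no longer called without microarray 1) was higher and miR-26a (-1.72) lower, and miR-130a (1.39) was higher. miR-181a (-2.01), which acts in myoblast differentiation, and miR-103 (-1.05, or -1.66 without microarray 2) were lower. miR-143 (0.12) and miR-130b (0.34) missed the threshold.

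Outside the lists the extremes were miR-484, miR-361 and miR-423-5p. miR-484 had Cts of 24.73, 24.63, 24.96 and 24.84, rank 7 on the cards, and log2 signals of 6.90 and 6.41, rank 60 on the microarray. Its difference of 5.66 ± 0.20 (SE), or 50.5-fold, was the largest in favour of the cards among the 83 tested (limma adjusted p = 2.71e-08). miR-19b and miR-140, high on the cards and not detectable on the microarray, were not fitted and so could not be ranked here. In reverse, miR-361 had Cts of 34.23, 33.80, 33.97 and 33.10 and log2 signals of 9.39 and 9.36, a difference of -6.05 ± 0.33 (SE), and miR-423-5p differed by -5.49 ± 0.25 (SE). For both, the cards were near their limit and the chips were far above theirs.

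Other large differences were shared among unrelated miRNAs. miR-210, induced by hypoxia, was higher on the cards by 3.29, miR-133b by 3.05, miR-574-3p by 2.96, miR-31 by 2.90 and miR-425 by 2.83. miR-197 (-3.44), miR-185 (-3.26) and miR-21 (-2.96), which is abundant in most cultured cells, were lower. For miR-574-3p the chips stood at 5.31 and 7.02, and its difference was 1.9 without microarray 1, and for miR-197 the Cts ran from 33.69 to 36.02.

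Near-identical miRNAs were compared directly, since the sample median drops out of a gap between 2 miRNAs of 1 sample. In 40 pairs the target sequences differed by 1 or 2 bases and at least 1 member was detectable somewhere. In 23 of these both members were detectable on both platforms, and all 23 shared the seed. The order was the same on all 4 cards and both chips in 12 pairs and opposite in 8, and in 3 it varied between the samples of a platform. In each of the 23 pairs the gaps on the cards did not overlap those on the chips, which also held for 87.5% of all 3403 pairs of the 83 miRNAs. The order was opposite in 25.6% of all pairs, against 34.8% of the 23. The difference in gap was not tested, and the levels of different assays or probes are not calibrated against each other on either platform. Pairs share members, so these counts are not of independent items.

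**Figure D4:**
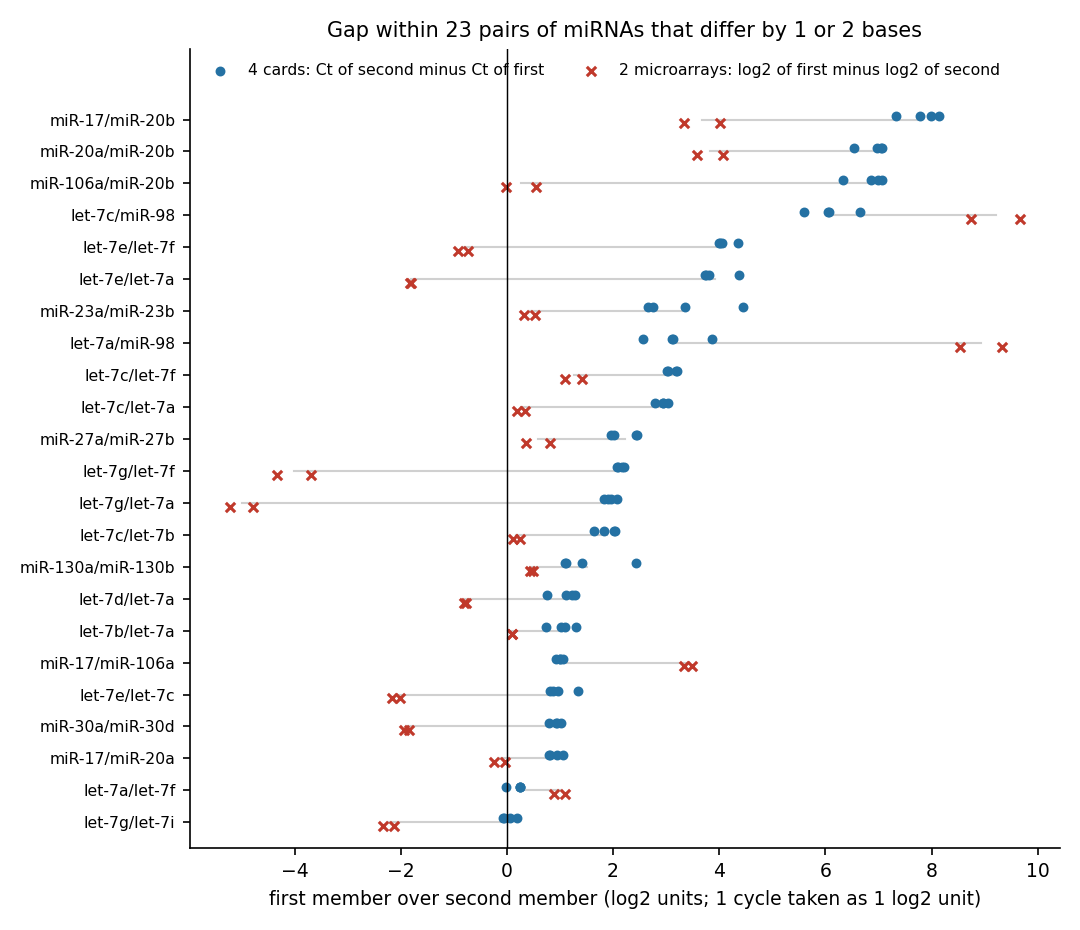
Gap within each of 23 pairs of miRNAs that differ by 1 or 2 bases (x axis, log2 units, first member over second, taken as the Ct of the second minus that of the first on the cards), for 4 cards (blue points) and 2 microarrays (red crosses). The cards lie right of 0 in nearly all pairs because the first member is the one with the lower mean Ct, and the chips lie left of 0 in 8 pairs with opposite order and in let-7g/let-7i.

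The mean gap was wider on the cards in 14 of the 23 pairs (60.9%), against 50.2% of all pairs of the 83 miRNAs. In miR-23a/miR-23b (U19A) the gaps were 2.66, 2.74, 4.45 and 3.35 cycles on the cards and 0.54 and 0.33 log2 units on the chips. In let-7c/let-7a (G19A) they were 2.95, 2.94, 2.78 and 3.03 cycles and 0.34 and 0.20 log2 units. The pair miR-103/miR-107 (G22C) is not among the 23, because miR-107 was not detectable on the cards and had 1 undetermined well. Its mean gap was 6.40 cycles, which has no exact size, and 0.51 log2 units. In let-7c/let-7b (A17G) the mean gap was 1.89 cycles and 0.18 log2 units, and in miR-27a/miR-27b (C19U) 2.22 and 0.59. In miR-106a/miR-20b (A10C and C12U) it was 6.81 and 0.27, and in miR-130a/miR-130b (U11A and A13G) 1.51 and 0.47. The wider card gaps thus occurred with changes in the middle as well as in the 3′ part of the miRNA.

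Other pairs had the wider gap on the microarray. In miR-17/miR-106a (U10A) the gaps were 0.99, 0.93, 1.06 and 1.00 cycles on the cards and 3.48 and 3.34 log2 units on the chips. In let-7g/let-7i (A17G and A19U) the mean gap was 0.03 cycles and -2.23 log2 units, so these also occurred with changes at either place. Where at least 1 member of a pair was not detectable on the microarray, the gap there has no exact size, and 3 such pairs are given here by their cards. miR-29a/miR-29c (C10U) were 4.01 cycles apart, miR-30a/miR-30e (C13U) 0.06 cycles and miR-19b/miR-19a (C11U) 2.93 cycles.

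The 8 pairs of opposite order included 6 of let-7, but let-7 pairs also made up most of the 23 compared. These let-7 pairs share members, so the count is not read as a trait of the family. let-7e stood above let-7a (G9U) by 3.75, 3.80, 3.74 and 4.37 cycles on the cards and under it by 1.82 and 1.81 log2 units on the chips. let-7g stood above let-7a (U12G and C18U) by 1.84 to 2.08 cycles and under it by 4.77 and 5.22 log2 units. The other let-7 pairs were let-7d/let-7a (1.09 cycles and -0.79 log2 units on average), let-7e/let-7c (0.99 and -2.08), let-7e/let-7f (4.10 and -0.82) and let-7g/let-7f (2.13 and -4.01). miR-30a/miR-30d (0.92 and -1.89) and miR-17/miR-20a (0.90 and -0.14) completed the 8.

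miRNAs of 1 primary transcript gave another internal comparison. The miR-17 cluster lies at chr14:115043684-115044496 on the plus strand and holds miR-17, miR-18a, miR-19a, miR-20a, miR-19b and miR-92a. Its members spanned 7.09 cycles on the cards, with miR-19b highest and miR-18a lowest, and 7.72 log2 units on the microarray, with miR-92a highest and miR-19a lowest. miR-19b and miR-92a thus changed places, although both are also encoded on chromosome X. In the cluster of miR-99b, let-7e and miR-125a-5p at chr17:17830194-17830876, the 3 mean Cts were 25.81, 25.93 and 26.87 and the mean log2 signals 10.68, 12.77 and 12.39. miR-99a and let-7c, at chr16:77598940-77599693, had mean Cts of 27.64 and 26.92 and mean log2 signals of 5.02 and 14.85, and let-7c has another locus. These neighbours were within 0.71 cycles of each other on the cards, while on the microarray let-7c was first in rank and miR-99a lay at the limit.

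**Figure D5:**
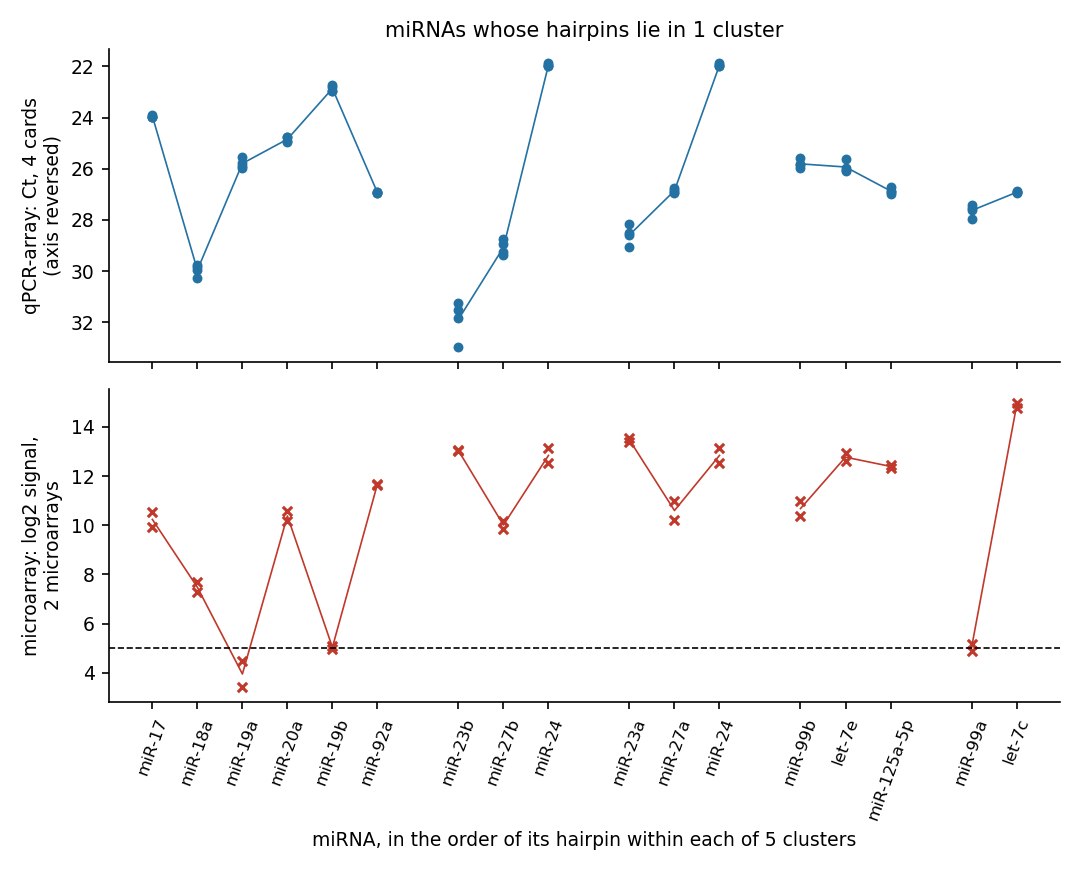
Ct on the 4 cards (upper panel, axis reversed) and log2 signal on the 2 microarrays (lower panel, dashed line at the limit of 5) for miRNAs whose hairpins lie in 5 clusters, in hairpin order, with lines through the means. In the first cluster miR-19a and miR-19b are high on the cards and at or under the limit on the microarray, and in the last let-7c exceeds miR-99a by 0.71 cycles on the cards, while miR-99a lies at the limit of the microarray.

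The platform difference varied with base composition of the target. Over the 83 miRNAs its rho was -0.36 with the share of U, 0.34 with C, -0.26 with G and 0.19 with GC content. U-rich miRNAs thus tended to stand lower on the cards than on the microarray. Without the let-7 family, whose members are U- and G-rich and alike, the values were -0.21, 0.17, -0.11 and 0.04 (n = 74). Taken by platform, the share of U had rho 0.01 with mean Ct and 0.30 with mean log2 signal over the 83 miRNAs. These are descriptions across miRNAs that share samples and families. Composition and family cannot be told apart for let-7.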

How the data were processed

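All 6 samples are aliquots of 1 C2C12 RNA sample, so p-values measure technical spread only. For the cards, the authors computed Ct values (a score) with SDS software v.2.3 and deposited them with undetermined wells at 40. For the microarrays, the authors deposited scanner density values and background-subtracted signal intensity for 5 spots per probe. The log2 was taken here with no floor added, except in the alternative without a filter, where a signal floor of 1 was set. The stated locally-weighted regression was not visible in the deposited intensity values, which equalled the submitters' value table. No per-sample column was left without a sample (0 columns).

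Here, Ct minus MammU6 and mean log2 intensity were centred per sample on the median of the miRNAs detectable on both platforms and fitted with limma 3.58.1 in R 4.3.3 (Benjamini-Hochberg, threshold 0.05), after a check on simulated data. Pairs and correlations were computed in Python 3.11.15. Groups came from the labels.

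Named were members of the lists, the 10 highest of each platform, the 10 largest differences in each direction past the threshold, the 10 lowest Cts among miRNAs missed by the microarray and the 10 highest signals among those missed by the cards (2 existed). Members and lists were chosen with earlier results of these data known. Alternatives changed the Ct and signal limits, spot summary, background correction, reference RNA, centring, PCR efficiency, weights, rat assays, days, reactions and single samples. Sequences of 299 of the 333 targets were found in RefSeq (GRCm38.p6). Array B was not used here.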

Additional observations from a re-analysis of the deposited data

Results flagged for a closer look

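Of the named miRNAs detectable on the cards, 8 (7.77% of those tested) had 1 card that stood apart from the other 3 by Dixon's criterion, where chance alone gives about 1 in 20, so the count is near chance. The card RT2 day 1 was highest for miR-146b (ΔCt 9.352, against 9.12 to 9.15 on the others). The card RT1 day 1 was lowest for miR-199a-5p (10.94, against 13.07 to 13.39) and highest for miR-449b (20.43, an undetermined well, against 12.67 to 13.63). The card RT1 day 2 was lowest for miR-15b (7.06) and miR-17 (4.12) and highest for miR-467d (17.26). The card RT2 day 2 was highest for miR-19b (3.40) and miR-20a (5.32). Of these, only miR-199a-5p, miR-449b and miR-467d stood apart by more than 1 cycle.

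For 8 pairs of near-identical miRNAs the order on every card was opposite to that on both microarrays. As the first member over the second, on the cards and on the microarray, the mean gaps were 1.09 and -0.79 log2 units for let-7d/let-7a, 3.92 and -1.82 for let-7e/let-7a, 0.99 and -2.08 for let-7e/let-7c, and 4.10 and -0.82 for let-7e/let-7f. They were 1.95 and -4.997 for let-7g/let-7a, 2.13 and -4.01 for let-7g/let-7f, 0.90 and -0.14 for miR-17/miR-20a, and 0.92 and -1.89 for miR-30a/miR-30d. The difference in order was not tested.

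Signal was also present in features outside the matched set. Of the microarray probes without an Array A assay of the same name, 47 were detectable, led by miR-709 (mean log2 15.72), miR-206 (12.10) and miR-196a (10.98). Of the 40 rat assays of Array A, 8 were detectable in this mouse RNA, including those of miR-532-5p (mean Ct 27.95), miR-224 (29.79) and miR-351 (29.83).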

How the results depend on the processing

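Over 32 alternatives, 39 of the 61 named miRNAs tested kept direction and side of the threshold in each one they entered. Of 1770 comparisons of these miRNAs with an alternative, 1624 kept both, 78 lost the call, 39 gained it and 29, on 9 miRNAs, changed sign. No miRNA called at the report's settings was called in the other direction under an alternative. For all values below the cause was not tested, except that limits change which miRNAs enter and thereby the median on which samples were centred. That shift was 0.43 and 1.24 log2 units at signal limits of 64 and 500, and 1.00 without a filter. It was -0.45 with a mean signal of 32 or with the spot median and -0.22 with the log2 of the spot mean. With mean centring it was 0.37 and without let-7 -0.51. Leaving out a microarray also changes which miRNAs enter. The differences then moved by a median of -0.14 without microarray 1 and -0.44 without microarray 2.

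With a Ct limit of 30, r was 0.391, rho 0.424, 6.61% of matched miRNAs were detectable by the qPCR-array only and 6.61% by the microarray only, and the let-7 median was -4.86. With a limit of 33 these were 0.392 and 0.429, with 2.70% by the microarray only, and medians of -4.80 for let-7 and 0.84 for miR-17-92. With a Ct of 35 or less on every card rho was 0.488. At a signal limit of 64, r was 0.315, rho 0.342 and the miR-17-92 median 1.01. At 500, r was 0.0572 and rho 0.0525, 31 of 36 miRNAs were called (38.7% of them higher on the cards, against 51.4%), 10.8% were detectable on both, 41.1% by the qPCR-array only and 0.300% by the microarray only, and the medians were -3.82 and 1.43. With a mean signal of 32 or more, r was 0.426, rho 0.466, 1.2% were detectable by the microarray only and the medians were -5.12 and 0.31. The spot median gave 0.428, 0.476, -5.10 and 0.30, and the log2 of the spot mean 0.422, 0.471 and a let-7 median of -4.89.

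The let-7 median was -4.38 after normexp and quantile normalization and -4.81 at a PCR efficiency of 1.9. Spearman's correlation was 0.488 on the cards of day 2 and 0.483 on those of aliquot 1. Without a filter 241 miRNAs were called, r was 0.648, rho 0.603 and the medians -3.67 and 1.58. Mean centring gave medians of -4.30 and 0.96. Requiring 2 log2 units left 38 called. Added after seeing the data, leaving out let-7 gave r = 0.532, rho = 0.554 and a miR-17-92 median of 0.0749, and leaving out the 10 largest differences gave r = 0.698 and rho = 0.720, which that removal raises by construction. Without 1 card or microarray, 71 to 75 were called, r was 0.439 to 0.464, rho 0.457 to 0.505, 24.6% to 26.1% were detectable on both, 25.8% to 27.9% by the qPCR-array only and 0.601% to 1.5% by the microarray only (1.5% without microarray 1), 6 to 7 of the 20 highest were shared, and the medians ran from -4.98 to -4.60 for let-7 and 0.18 to 0.67 for miR-17-92 (0.18 without microarray 2). A lone microarray was assumed to vary like the cards.

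Sign changed for let-7g (0.0411 and 0.85 at signal limits of 64 and 500, and 0.61 without a filter), miR-18a (0.0939 at 64, 0.67 without a filter, 0.0414 with mean centring), miR-30d (0.0273 at 64, 0.60 without a filter) and miR-27a (0.0737 at 64, 0.89 at 500, 0.65 without a filter, 0.0212 with mean centring and 0.0271 as a rank fraction). It changed for miR-130b (-0.11 with the mean signal, -0.17 with the spot median, -0.89 after normexp, -0.26 without microarray 2, -0.17 without let-7) and miR-143 (-0.0729 with a Ct limit of 30, -0.33, -0.39 and -0.10 with the mean signal, spot median and log2 of the spot mean, -0.0287 on aliquot 1, -0.55 without microarray 2 and up to 0.21 without microarray 1, -0.0482 as a rank fraction, -0.39 without let-7). None of these 6 was called at the settings of the report, while let-7g and miR-27a were called at the limit of 500 and miR-143 without microarray 2. The others were miR-34a (-0.36 after normexp), miR-486 (-0.0578 with the spot median) and miR-99b (-0.0461 without microarray 2, and up to 0.73 without the card RT2 day 2).

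The replicate block, pairing cards and microarrays by aliquot number, called 73, 1 fewer, the same miRNAs but for miR-34a (limma adjusted p = 0.0522). The numbers only name aliquots. Other reference RNAs or none left all differences as they were by construction. The submitters' value table equalled the signal used, so that alternative was not run separately. With 4 cards and 2 chips the number of samples limits the precision, and miRNAs near a Ct of 35 or a signal of 32 are placed least firmly.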

Other observations

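Cts gathered just under whole cycles. Of 661 wells at or under 35 cycles among the miRNAs detectable on the cards, 48.9% had a decimal part of 0.8 or more and 8.47% a decimal part under 0.2, where an even spread would give equal shares. By card, the upper share was 36.7% on RT1 day 1, 45.2% on RT2 day 1, 55.2% on RT1 day 2 and 58.4% on RT2 day 2. Gaps between miRNAs on the cards, such as the 0.99, 0.93, 1.06 and 1.00 cycles of miR-17/miR-106a, were read from such values.

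The microarray signal of matched miRNAs reached 33789 on microarray 2, where the brightest scanner value was 59765. Whether any let-7 spot was saturated was not tested. Of the 20 brightest probes, 18 had an assay on Array A.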
